A study of Mus musculus with 4 samples.

Results

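Dividing T cells were examined in mouse mammary tumours grown from transplanted Py8119 cells, a mammary carcinoma line, in 2 libraries from tumours given a short hairpin RNA against Sema4d (Sema4d-shRNA) and 2 libraries from control tumours (NC). A cell was taken as a cycling T cell when it had at least 300 genes, at least 1 unique molecular identifier (UMI, a counted transcript molecule) of Cd3d, Cd3e and Cd3g together, and at least 2 UMIs of Top2a, Mki67, Rrm2 and Cdk1 together. Cells with 10 or more UMIs per 10000 of the tumour genes Krt8, Krt18, Tm4sf1 and Cdkn2a together, or of the macrophage genes C1qa, C1qb and C1qc together, were left out. The members were thus chosen by their own UMI counts of Cd3, cycle, tumour and macrophage genes, and those genes' levels are a description. The rule took 339 of 45220 cells, 87 and 162 in Sema4d-shRNA libraries 1 and 2, and 57 and 33 in NC libraries 1 and 2. They were set against the 1311 cells that passed the same Cd3, tumour and macrophage limits with 0 UMIs of the 4 cycle genes, 289 and 619 in the Sema4d-shRNA libraries and 248 and 155 in the NC libraries. Another 260 Cd3 cells had exactly 1 cycle UMI and belong to neither set. Wherever a pair of values is given for a group, library 1 comes before library 2.

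All 4 libraries came from transplanted Py8119 tumours and differed by label only in the genotype, Sema4d-shRNA or control. The labels give the hairpin as the genotype beside the Py8119 line, and T cells in a transplanted carcinoma are cells of the host. The host strain, its age, the number of animals, any pooling of tumours and the number of clones behind the knockdown are not stated in the labels. P-values between groups therefore measure only the spread between libraries, which may be technical.

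A T cell that has been activated through its antigen receptor and by cytokines leaves quiescence and copies its DNA in S phase before it divides in mitosis. Genes needed for DNA copying are switched on by E2F factors, and genes needed for mitosis by the MuvB complexes with B-MYB and FOXM1, which act through the cell cycle homology region (CHR) of their promoters. Sema4d encodes a transmembrane semaphorin that T cells themselves make and that binds plexin-B receptors and CD72.

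The genes that define the cells differ in these promoter words, so the sequence upstream of 3 of them is shown. Capitals mark the CHR word TTTGAA, the CCAAT box and the E2F word TTTNNCGC on either strand, in the 250 bases before the gene start (RefSeq sequence, GRCm38.p6, in the direction of the gene). The windows lie at chr11:99024190-99024439 on the minus strand for Top2a, the topoisomerase that untangles DNA, at chr10:69352913-69353162 on the minus strand for Cdk1, the kinase that starts mitosis, and at chr12:24708004-24708253 on the plus strand for Rrm2, a subunit of ribonucleotide reductase.
Top2a: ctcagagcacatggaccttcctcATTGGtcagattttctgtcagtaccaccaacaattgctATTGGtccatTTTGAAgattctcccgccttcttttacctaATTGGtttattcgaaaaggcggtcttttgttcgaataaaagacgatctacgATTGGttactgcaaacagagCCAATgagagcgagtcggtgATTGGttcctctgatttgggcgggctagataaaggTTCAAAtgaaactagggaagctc
Cdk1: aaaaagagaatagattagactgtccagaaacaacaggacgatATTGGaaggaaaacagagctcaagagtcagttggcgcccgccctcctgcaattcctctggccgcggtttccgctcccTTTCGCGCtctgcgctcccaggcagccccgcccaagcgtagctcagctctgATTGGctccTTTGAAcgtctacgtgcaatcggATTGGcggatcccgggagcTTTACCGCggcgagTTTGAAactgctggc
Rrm2: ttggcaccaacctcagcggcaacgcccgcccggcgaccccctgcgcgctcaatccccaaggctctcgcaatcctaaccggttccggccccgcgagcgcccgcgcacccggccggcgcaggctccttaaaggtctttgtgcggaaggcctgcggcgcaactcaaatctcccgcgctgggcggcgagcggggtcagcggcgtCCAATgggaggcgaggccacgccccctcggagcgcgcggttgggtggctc
Top2a held 2 CHR words and 6 CCAAT boxes, and Cdk1 held 2 CHR words, 3 CCAAT boxes and 2 E2F words. Rrm2 held 1 CCAAT box and no CHR or E2F word. Among all 32851 windows of 27025 genes, 16.0% held a CHR word, 33.8% a CCAAT box, 4.28% an E2F word, and 5.55% both a CHR word and a CCAAT box. In the 47 windows of 42 matched G2 and M phase genes the shares were 36.2%, 76.6%, 8.51% and 31.9%, and in the 34 windows of 30 matched S phase genes 14.7%, 67.6%, 35.3% and 8.82%. CHR and CCAAT together were thus frequent in the mitotic list, and the E2F word in the S phase list. A word is a match of letters and not a shown binding site.

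The T-cell label held for only some of the 339 cells. Genes that every leukocyte makes (Ptprc, Coro1a, Rac2, Laptm5 and 1 more, summed) reached 10 UMIs per 10000 in 222 cells, which are 65.5% of the members and 36.0% of their UMIs. The other 117 cells held 64.0% of the UMIs. In them 91.4% and 83.0% of the cells in the Sema4d-shRNA libraries and 85.7% and 87.5% in the NC libraries had a single Cd3 UMI, and the median cell had 19207 and 16906 UMIs in the Sema4d-shRNA libraries and 20274 and 15133.5 in the NC libraries. The summed level of 11 tumour markers was 14639 and 17729 CPM (UMIs of a gene scaled to the same total for every library) in the Sema4d-shRNA libraries and 16906 and 14643 CPM in the NC libraries among the cells without leukocyte genes, against 2743 and 3691 CPM and 1883 and 3840 CPM in the members with leukocyte genes. The 7 listed T-cell markers, of which Cd3d, Cd3e and Cd3g were used by the rule, summed to 91.8 and 130 CPM in the Sema4d-shRNA libraries and 113 and 145 CPM in the NC libraries among the cells without leukocyte genes, against 3367 and 3423 CPM and 3540 and 3328 CPM in those with them. Of the tumour markers, Krt8, Krt18, Tm4sf1 and Cdkn2a were held low by the rule in both sets. Cells without leukocyte genes thus carried tumour markers and few T-cell markers, and are not called T cells here. Of the 1311 Cd3 cells without cycle genes, 1193 (91.0%) had leukocyte genes, a larger share than among the cycling cells. The limit on leukocyte genes was chosen after seeing the data. Results are given for the cells with leukocyte genes, with the value over all cells of the rule beside them, and the genes used for this limit are not reported as differences. Scrublet, a doublet caller, failed to find a threshold in 3 of 4 libraries and marked 0.0092% of cells or fewer there, so the cells with the highest scores up to the expected rate were marked there instead, 634 and 790 cells in the Sema4d-shRNA libraries and 652 in NC library 1. In NC library 2 the caller's own threshold was kept, which marked 161 cells (1.52%), so its shares rest on a lower rate. Of the members without leukocyte genes, 22.9% and 17.0% were marked in the Sema4d-shRNA libraries and 9.52% and 0% in the NC libraries, against 5.77% and 4.59% and 2.78% and 4% of the members with them. Marked cells were kept, and their part in the results is given among the alternatives.

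**Figure D1:**
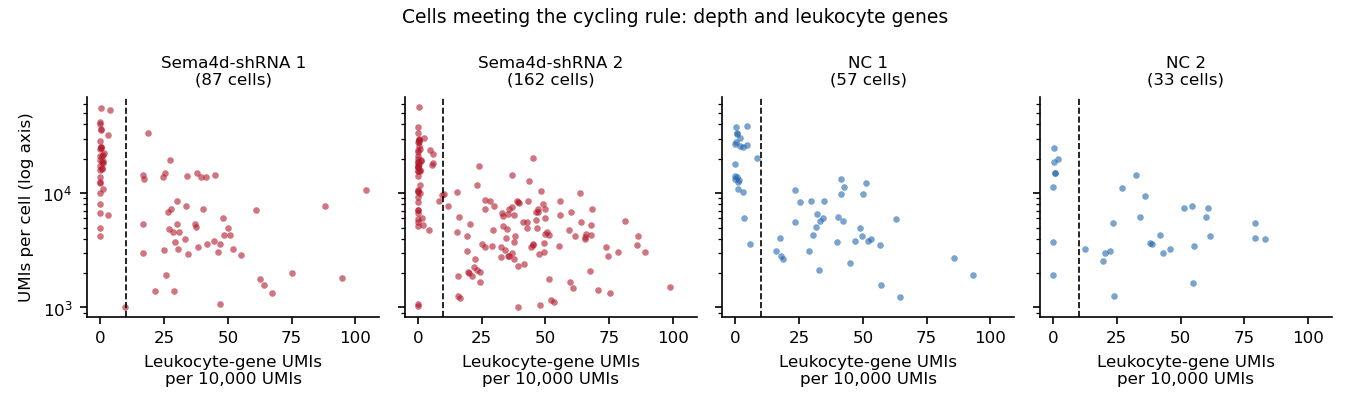
Each point is 1 of the 339 cells that met the cycling rule, with its summed leukocyte-gene UMIs per 10000 UMIs on the x axis and its UMIs on a log y axis, 1 panel per library; the dashed line is the limit of 10. In all 4 panels the cells left of the line reach higher UMI numbers than most cells right of it.

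The members with leukocyte genes numbered 52 and 109 in the Sema4d-shRNA libraries and 36 and 25 in the NC libraries. They carried T-cell genes that the rule did not use. Thy1, a surface marker of T cells, reached 899 and 780 CPM in the Sema4d-shRNA libraries and 861 and 830 CPM in the NC libraries, against 10.8 and 30.9 CPM and 15.9 and 0 CPM in the members without leukocyte genes. Lck, the kinase of the T-cell receptor, reached 197 and 232 CPM in the Sema4d-shRNA libraries and 230.4 and 186 CPM in the NC libraries. None of the 4 listed T-cell markers outside the rule, Thy1, Lck, Cd2 and Cd5, was at 0 in any library, although Cd5 had a single UMI in NC library 2. Cd3e, a chain of the T-cell receptor complex that the rule used, is given as a description, at 359 and 426 CPM in the Sema4d-shRNA libraries and 521 and 419 CPM in the NC libraries. The markers of other blood cells given here were lower in sum than those of T cells. Dendritic and mast cell markers are not given. The tumour marker sum of these members, given above, was higher than their T-cell marker sum in library 2 of each group. All 4 libraries were at 0 for Cd79a, a B-cell receptor chain, and Ncr1, a receptor of natural killer cells, had 1 and 8 UMIs in the Sema4d-shRNA libraries and 1 and 0 UMIs in the NC libraries. The 7 natural killer markers summed to 244 and 312 CPM and to 185 and 147 CPM, the 13 macrophage or monocyte markers to 727 and 726 CPM and to 781 and 745 CPM, and the 6 neutrophil markers to 11.2 and 3.63 CPM and to 0 CPM in both NC libraries. The macrophage or monocyte sum counts C1qa, C1qb and C1qc, which the rule held low. Genes of other cell types (Lyz2, Csf1r, Cd79a, Ms4a1, Csf3r, Epcam, Col1a1 and Col3a1) were also summed in each member with leukocyte genes. Sums of 2 or more UMIs were found in 7 of 52 and 6 of 109 members in the Sema4d-shRNA libraries. In the NC libraries they were found in 9 of 36 and 7 of 25, a larger share. The marker Cd8a, a chain of the CD8 co-receptor that the rule did not use, was present at 314 and 452 CPM in the Sema4d-shRNA libraries and 511 and 621 CPM in the NC libraries.

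These cells were deeper than the cells they are set against. The median cycling cell with leukocyte genes had 4712.5 and 4228 UMIs in the Sema4d-shRNA libraries and 4593 and 4043 UMIs in the NC libraries, against 2010 and 2031 UMIs and 2068.5 and 1979 UMIs in the Cd3 cells without cycle genes. A rule that asks for 2 UMIs takes deep cells more readily, so shares were also computed with every cell thinned to 1000 UMIs. No cell had too few UMIs to be thinned. For the cycling shares the rule was applied again to the thinned counts, and cells that no longer met it were left out. Cd3 cells with leukocyte genes thus fell from 351 and 757 to 264 and 560 in the Sema4d-shRNA libraries. In the NC libraries they fell from 299 and 201 to 184 and 137. CD8, CD4 and Foxp3 shares kept the cells first taken. At the edge of the rule, over all cells, those with 1 cycle UMI had a summed S phase level of 884 and 1000 CPM in the Sema4d-shRNA libraries and 1269 and 1421 CPM in the NC libraries, those with 2 had 843 and 976 CPM and 1108 and 1874 CPM, and those with 3 had 2178 and 1857 CPM and 1784 and 2006 CPM. The summed G2 and M phase level was 1519 and 1518 CPM in the Sema4d-shRNA libraries and 2135 and 1646 CPM in the NC libraries with 1 cycle UMI, 1456 and 2095 CPM and 1978 and 2478 CPM with 2, and 3716 and 3913 CPM and 2234 and 4482 CPM with 3. Cells just inside the rule thus stood above cells just outside it in S phase genes in NC library 2 alone, and in G2 and M phase genes in library 2 of each group. Free RNA was gauged in cells gated as neutrophils, which do not divide: 2 or more cycle UMIs were found in 0 of 12 and 0 of 3 such cells in the Sema4d-shRNA libraries, which allows shares of up to 25% and 100% by a limit of 3 counts (exact 95% upper bounds 26.5% and 70.8%), and in 1 of 24 and 1 of 15 in the NC libraries, at median depths of 1262.5 and 1247 UMIs and 1385 and 1335 UMIs.

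Over the series, the libraries held 10575 and 13173 cells with Sema4d-shRNA and 10874 and 10598 with NC, and 83513906 to 119758159 UMIs in all. In cells past the tumour-gene limit and without Cd3, the targeted gene Sema4d had 4.50 and 6.40 CPM in the Sema4d-shRNA libraries, below 7.36 and 8.43 CPM in the NC libraries. Median mitochondrially encoded shares were low in the Sema4d-shRNA libraries, also among the members with leukocyte genes, at 0.154% and 0.237%, against 0.760% and 0.869% in the NC libraries. Pairs of libraries shared 756 to 3782 cell names, but the names are running numbers and hold no barcode sequence, so shared cells could not be counted.

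Cycling cells made up a larger share of the T cells in the Sema4d-shRNA tumours as counted. At equal depth, overlap of the groups depended on how the cells were taken. Among Cd3 cells with leukocyte genes the cycling share was 14.8% (95% exact binomial interval 11.3 to 19.0) and 14.4% (11.97 to 17.1) in the Sema4d-shRNA libraries, against 12.04% (8.58 to 16.3) and 12.4% (8.21 to 17.8) in the NC libraries. The groups did not overlap, and the difference of 2.37 percentage points had an exact permutation p of 0.333, the smallest that 2 against 2 libraries allow. Over all cells of the rule the shares were 20.4% and 18.0% against 15.9% and 14.7%, a difference of 3.89 points with the same exact p of 0.333. With cells thinned to 1000 UMIs and the rule applied again, the shares with leukocyte genes were 6.82% and 6.96% in the Sema4d-shRNA libraries and 7.07% and 5.84% in the NC libraries. The groups overlapped there, and the difference was 0.439 points (exact p = 1). Among the Cd3 cells first taken, thinned shares were 6.55% and 6.87% against 5.69% and 5.47%, without overlap. Over all cells, thinned and gated again, they were 7.33% and 7.18% against 6.60% and 6.29%, also without overlap (exact permutation p = 0.333). The intervals cover counting error only.

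Of all cells in a library, cycling T cells were more frequent in the Sema4d-shRNA tumours. Members with leukocyte genes were 0.492% and 0.827% of all cells in the Sema4d-shRNA libraries, against 0.331% and 0.236% in the NC libraries, and after thinning 0.170% and 0.296% against 0.12% and 0.0755%. The groups did not overlap in either count, and the exact p was 0.333 for both differences, 0.376 and 0.136 percentage points. Cd3 cells with leukocyte genes moved in the same direction, at 3.32% and 5.75% of all cells against 2.75% and 1.90%. The number of cells of other types enters these shares.

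**Figure D2:**
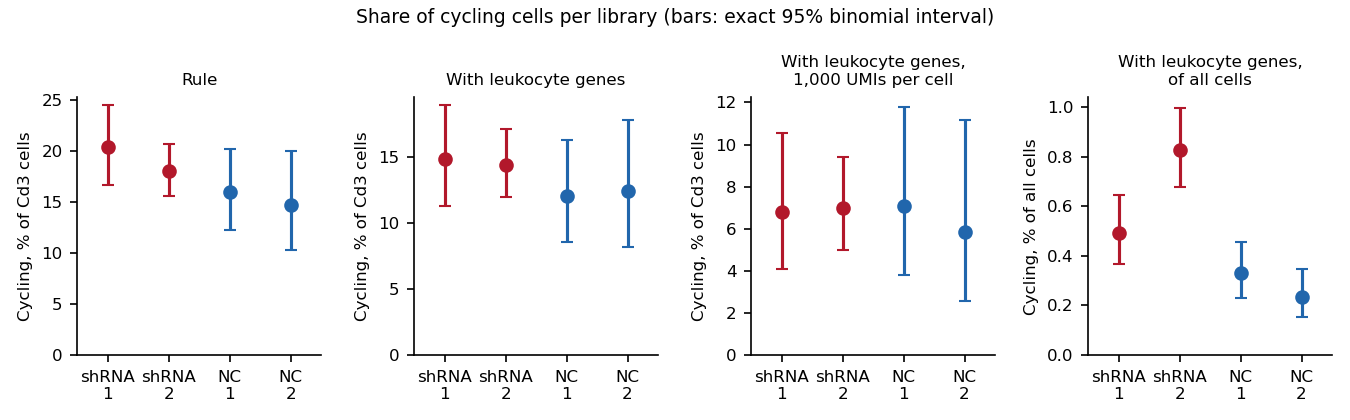
Points are the share of cycling cells in each library in percent, with Sema4d-shRNA libraries left of NC libraries, and bars are exact 95% binomial intervals; panels give the rule, the cells with leukocyte genes, the same at 1000 UMIs per cell, and the cells with leukocyte genes as a share of all cells. The Sema4d-shRNA points lie above the NC points in the first, second and last panels and overlap with them at 1000 UMIs per cell.

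The cycling cells with leukocyte genes were mostly CD8 cells. A cell was called CD8 with a UMI of Cd8a or Cd8b1 and none of Cd4. Among the members with leukocyte genes 31 of 52 (59.6%) and 91 of 109 (83.5%) were CD8 in the Sema4d-shRNA libraries, and 25 of 36 (69.4%) and 23 of 25 (92.0%) in the NC libraries. Among the Cd3 cells without cycle genes the shares were 48.7% and 64.3% in the Sema4d-shRNA libraries and 50.9% and 54.4% in the NC libraries. The CD8 share was higher in the cycling cells in 4 of 4 libraries, by 21.6 percentage points on average (exact sign-flip p = 0.125, the smallest 4 libraries allow). At 1000 UMIs per cell it was 46.2% and 66.1% in the Sema4d-shRNA libraries and 61.1% and 56.0% in the NC libraries for cycling cells, against 37.5% and 55.1% and 41.9% and 44.9% for cells without cycle genes, a mean difference of 12.5 points in the same direction in 4 of 4 libraries (exact p = 0.125). Over all cells of the rule 39.1% and 60.5% of cycling cells were CD8 in the Sema4d-shRNA libraries and 49.1% and 72.7% in the NC libraries. In the cells without cycle genes the shares were 45.3% and 59.6% and 46.8% and 52.9%. The mean difference was 4.20 points (exact sign-flip p = 0.625), and -2.19 points after thinning. In the members without leukocyte genes, Cd8a and Cd8b1 together stood at 13.5 and 25.4 CPM in the Sema4d-shRNA libraries and 11.3 and 9.04 CPM in the NC libraries.

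Between the groups the CD8 and CD4 shares overlapped, and the Foxp3 shares did not as counted. The CD8 share of the cycling cells with leukocyte genes was 71.6% in the Sema4d-shRNA libraries and 80.7% in the NC libraries on average, and within each group 1 library was high and 1 low (difference -9.17 points, exact p = 0.667). CD4 cells, with a Cd4 UMI and no Cd8a or Cd8b1 UMI, numbered 6 and 2 in the Sema4d-shRNA libraries and 4 and 0 in the NC libraries. Cells with a UMI of Foxp3, the master factor of regulatory T cells, numbered 3 and 5 in the Sema4d-shRNA libraries (5.77% and 4.59%) and 0 and 1 in the NC libraries (0%, with an exact 95% upper bound of 9.74%, and 4%). The groups did not overlap, and the difference of 3.18 percentage points had an exact p of 0.333, the smallest that 2 against 2 libraries allow. At 1000 UMIs per cell the Foxp3 shares overlapped (difference 0.796 points, exact p = 1). Read from the lineage side, 17.8% and 17.7% of CD8 cells with leukocyte genes were cycling in the Sema4d-shRNA libraries and 14.7% and 19.0% in the NC libraries. For CD4 cells the shares were 12.5% of 48 and 3.77% of 53 in the Sema4d-shRNA libraries, against 13.8% of 29 and 0% of 18 in the NC libraries, where 0 of 18 allows a share of up to 16.7% by a limit of 3 counts (exact 95% upper bound 18.5%). Cells with neither co-receptor were cycling in 11.7% and 8.65% in the Sema4d-shRNA libraries against 7.22% and 3.23% in the NC libraries. Their median depth was lower than that of CD8 cells in every library, and lower than that of CD4 cells only in library 1 of each group.

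**Figure D3:**
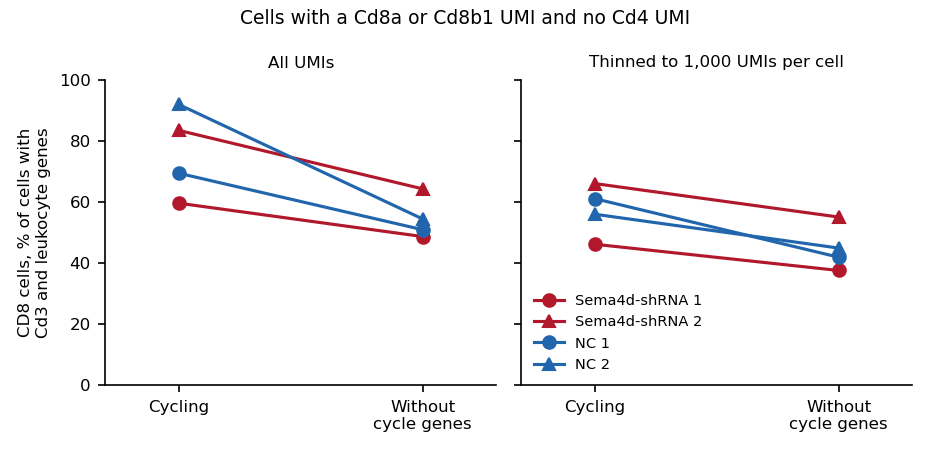
Lines join the CD8 share in percent of cycling cells (left) and of Cd3 cells without cycle genes (right) of the same library, all with leukocyte genes, from all UMIs and after thinning to 1000 UMIs per cell. All 4 lines fall to the right in both panels, and the lines of the 2 groups cross.

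Phase genes beyond the 4 of the rule were high in the members of every library, which the choice of members makes likely and which is a description only. S phase genes summed to 3052 and 3668 CPM in the Sema4d-shRNA libraries and 3841 and 3732 CPM in the NC libraries for cycling cells with leukocyte genes, and G2 and M phase genes to 7143 and 8211 CPM and to 9445 and 8247 CPM. In the Cd3 cells without cycle genes, S phase genes summed to 891 and 914 CPM and to 834 and 1352 CPM, and G2 and M phase genes to 1235 and 1255 CPM and to 1205 and 1339 CPM. The split between phases was even across groups. S phase UMIs made up 29.9% and 30.9% of both lists in the Sema4d-shRNA libraries and 28.9% and 31.2% in the NC libraries, which overlapped (difference 0.374 points, exact p = 1). Cells differed widely: in Sema4d-shRNA library 2, which had the most members, the quartiles were 19.8 and 53.6 S phase UMIs and 61.0 and 120.6 G2 and M phase UMIs per 10000.

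Cycling cells were next compared with Cd3 cells without cycle genes of the same library, on UMIs summed per library, with edgeR's quasi-likelihood test and library as a block. In the cells with leukocyte genes, 528 of 5079 genes tested (10.4%) were higher and 376 (7.4%) lower in cycling cells at an adjusted p under 0.05. Over all cells of the rule, 1291 of 7305 genes (17.7%) were higher and 1435 (19.6%) lower. The counts of lists given below stand beside these shares. The 2 fits shared 417 higher genes, which are 79.0% of those of the cells with leukocyte genes and 32.3% of those of the rule, and 325 lower genes, 86.4% and 22.6%. Because the rule chose cells by cycle genes, the rest of that programme is a description and not a finding. Of the 528 higher genes, 96 were in the S phase, G2 and M phase, G1 control or histone lists. All 37 G2 and M phase genes tested were higher, with a median log2 difference of 3.76, and so were 30 of 32 S phase genes, with a median of 1.94, and 19 of 22 histone genes. Beside them stood further genes of dividing cells. Stmn1, which takes microtubules apart, had 862 and 909 CPM in cycling cells of the Sema4d-shRNA libraries and 1177 and 993 CPM in those of the NC libraries, against 55.2 and 56.2 CPM and 62.7 and 123 CPM in cells without cycle genes (log2 3.78 ± 0.15, SE). The gene listed as 2810417H13Rik, which RefSeq lists as Pclaf, a partner of the DNA clamp PCNA, averaged 641 ± 88.2 CPM in cycling cells and 21.8 ± 6.88 CPM in cells without cycle genes (SD, n = 4 libraries each). Spc24, a part of the kinetochore, Smc2, a condensin, Plk1, a mitotic kinase, and Prc1, which bundles the spindle midzone, were higher by log2 4.16, 3.36, 4.75 and 4.44.

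Genes that set the entry to S phase belong to the programme by which the cells were chosen, so their values are a description only. Among them the direction differed by gene. Ccne1 and Ccne2, the E cyclins, were higher by log2 3.04 and 4.44, and Cdkn1a, an inhibitor of cyclin-dependent kinases, by 1.62. Ccnd2, a D cyclin of early G1, averaged 270 ± 43.3 CPM in cycling cells and 544 ± 63.3 CPM in cells without cycle genes (SD, n = 4 libraries each), a log2 difference of -1.05, and was lower in every library. Ccnd3 (log2 -0.32), Cdkn1b (-0.31), which encodes the inhibitor p27, and Myc (-0.32) did not pass the test, with adjusted p of 0.246, 0.415 and 0.391 by edgeR.

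Genes that supply nucleotides were among those higher in cycling cells. The rule chose cells by cycle genes, among them Rrm2, a subunit of ribonucleotide reductase. That choice makes higher nucleotide genes likely, so their values are a description and not a finding. Of 24 genes of nucleotide and one-carbon synthesis tested, 11 were higher and 1 lower (median log2 0.65, against -0.03 over all 5079 genes), and over all cells of the rule 17 of 26 were higher and 1 lower (median 0.87, against -0.02 over all 7305 genes). Dut, which keeps uracil out of DNA, had 772 and 666 CPM in cycling cells of the Sema4d-shRNA libraries and 841 and 784 CPM in those of the NC libraries, against 195 and 176 CPM and 219 and 259 CPM in cells without cycle genes (log2 1.82 ± 0.12, SE). Mthfd2, the mitochondrial one-carbon enzyme, was higher by log2 1.33, and Dtymk, thymidylate kinase, by 1.29. Every one of these was higher in the cycling cells of all 4 libraries. Of 21 genes of ribosome biogenesis 3 were higher (Ncl, Nop58 and Nop56, log2 0.49 to 0.54), of 17 glycolysis genes 5, among them Pgk1 (0.71) and Ldha (0.28), and of 44 nuclear genes of oxidative phosphorylation 4 were higher, among them Cox5b (0.48), and 2 lower. In the full set of the rule, 15 of 26 ribosome biogenesis genes were higher and 1 lower (median log2 0.61), 1 of 19 glycolysis genes was higher and 4 lower, and 3 of 44 genes of oxidative phosphorylation were higher and 3 lower. Over all genes tested, 10.4% were higher and 7.4% lower with leukocyte genes, and 17.7% and 19.6% in the full set of the rule. Oxidative phosphorylation stood under the share of higher genes in both sets, and ribosome biogenesis stood near it with leukocyte genes. Ribosome biogenesis thus gave other counts in the 2 sets of cells, and the lists were not tested against each other. Of the genes named after Dtymk, Ncl alone passed with each library left out in turn. Without 1 library the edgeR adjusted p reached 0.483 for Nop56, 0.0849 for Nop58, 0.199 for Pgk1, 0.115 for Ldha and 0.0829 for Cox5b.

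Genes of the resting and memory state were lower in cycling cells. Of 15 naive and memory genes tested, 11 were lower and none higher, with a median log2 difference of -0.88, and over all cells of the rule 13 of 16 were lower (median -1.73). Il7r, the receptor for the survival cytokine IL-7, had 64.6 and 50.8 CPM in cycling cells of the Sema4d-shRNA libraries and 55.1 and 46.6 CPM in those of the NC libraries, against 124 and 119 CPM and 114 and 69.5 CPM in cells without cycle genes (log2 -1.08 ± 0.22, SE). The cycling and non-cycling values did not overlap. Klf2, which keeps T cells quiescent and able to recirculate, averaged 161 ± 25.4 CPM and 288 ± 88.2 CPM (SD, n = 4 libraries each; log2 -0.90). Tcf7, the TCF1 factor of memory and progenitor cells, was lower too (log2 -1.33), with 30.9 and 12.7 CPM and 45.1 and 15.5 CPM against 71.6 and 46.4 CPM and 54.6 and 74.8 CPM. Lef1, its relative, differed by -1.68. Because CD4 cells made up 11.5% and 1.83% of the cycling cells in the Sema4d-shRNA libraries and 11.1% and 0% in the NC libraries, against 12.6% and 7.99% and 10.8% and 8.84% of the cells without cycle genes, the test was repeated in CD8 cells only, a choice made after seeing the data. The CD4 share was lower in the cycling cells in 3 of 4 libraries (exact sign-flip p = 0.25). There 501 of the 904 genes still passed, all 777 that could be tested kept their direction, Klf2 still passed (log2 -0.67), and Il7r did not (-0.49, edgeR adjusted p = 0.249). Tcf7 and Lef1 were too low there to be tested.

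The CD8 co-receptor genes differed little between cycling cells and the rest, and some other T-cell lineage genes were lower. Cd8a and Cd8b1 did not pass (log2 -0.06 and -0.20), Cd4 was lower (-1.60), and 6 of 20 lineage genes were lower with none higher. Cd2, an adhesion receptor, had 334 and 267 CPM in cycling cells of the Sema4d-shRNA libraries and 275 and 279 CPM in those of the NC libraries, against 542 and 424 CPM and 411 and 494 CPM (log2 -0.73). In the full set of the rule all 20 lineage genes were lower (median -1.43), beside the tumour markers and single Cd3 UMIs given above.

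In the cells with leukocyte genes few killing and exhaustion genes passed the test, and over all cells of the rule most were lower. Of 27 cytotoxic effector genes tested 1 was higher and 4 lower, with a median log2 difference of -0.06, and over all cells of the rule 1 was higher and 18 lower (median -1.14). The higher one, Gzmd, a granzyme, had 573 and 29.0 CPM in cycling cells of the Sema4d-shRNA libraries and 100.2 and 62.1 CPM in those of the NC libraries, against 122 and 11.2 CPM and 11.2 and 21.4 CPM. It was higher in each library's cycling cells, but rested on 7, 2, 3 and 2 cells with a UMI, and without library as a block it did not pass (edgeR adjusted p = 0.35). Granzyme genes of this cluster are near copies and reads may be split between them. The lower ones were the chemokines Ccl5 and Ccl3, Srgn, the proteoglycan of granules, and Ctsw, a cathepsin (log2 -1.14, -0.90, -0.44 and -0.52). Ccl5 had 1275 and 1315 CPM in cycling cells of the Sema4d-shRNA libraries and 1622 CPM in both NC libraries, against 3304 and 3341 CPM and 2666 and 3044 CPM (log2 -1.14 ± 0.09, SE). Gzmb, the main granzyme of killer cells, Prf1, perforin, and Ifng, interferon gamma, did not pass (log2 0.51, 0.32 and -0.70, edgeR adjusted p of 0.245, 0.143 and 0.452). Nor did Pdcd1, the checkpoint receptor PD-1 (log2 -0.10), while 3 of 16 checkpoint genes were lower, Tnfrsf18, Cd160 and Icos, the last of which did not pass without NC library 1 or Sema4d-shRNA library 1, nor Cd160 without either Sema4d-shRNA library (edgeR adjusted p of 0.0541, 0.154, 0.286 and 0.196). In the full set of the rule 15 of 16 checkpoint genes were lower (median -1.24), and the signs of Gzmb and Prf1 were turned (-0.60 and -0.82), beside the tumour markers and single Cd3 UMIs given above.

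Interferon-response and immediate early genes were lower in cycling cells. Of 24 interferon genes tested 12 were lower and none higher (median log2 -0.76). Ifit3, an interferon-induced antiviral gene, had 19.7 and 10.9 CPM in cycling cells of the Sema4d-shRNA libraries and 10.02 and 7.76 CPM in those of the NC libraries, against 80.6 and 64.6 CPM and 48.2 and 42.8 CPM in cells without cycle genes (log2 -2.34 ± 0.34, SE). Slfn1, a gene named for holding back thymocyte growth, and Ifi27l2a were lower as well (log2 -1.86 and -0.92). The values of cycling and non-cycling cells did not overlap for any of these 3. Of 28 immediate early and heat shock genes 13 were lower and 2 higher, with the AP-1 genes Junb (log2 -1.01) and Jun (-0.66), the phosphatase Dusp2 (-0.99) and Zfp36 (-1.14), which takes down cytokine transcripts, among the lower ones. The 2 higher ones were the chaperones Hsp90aa1 (0.51) and Hspa8 (0.32). Of 22 cytokine receptor and signalling genes 6 were lower, such as Il2rg, the common gamma chain, and Socs1, a brake on cytokine signals, and of 18 trafficking genes 4 were lower, the integrin chain Itgb7, the chemokine receptors Cxcr6 and Cxcr3, and Ly6a; Cxcr3 did not pass without NC library 2 or Sema4d-shRNA library 1 (edgeR adjusted p of 0.137 and 0.0535). Of 31 proteasome genes 3 were lower, Psmb10, Psme1 and Psme2 (log2 -0.73, -0.40 and -0.46), near the share of 7.4% lower over all genes tested. Of 11 mitochondrially encoded genes 9 were lower (median -0.80), and of 76 ribosomal protein genes 24 were lower and 6 higher (median -0.11). Sema4d itself did not pass (log2 -0.20, edgeR adjusted p = 0.44), nor did any of the 4 genes of its axis that could be tested, 1 of them at an unadjusted p under 0.05. All these medians stand against -0.03 over all 5079 genes, of which 10.4% were higher and 7.4% lower. In the full set of the rule 14 of 33 interferon genes were lower and 1 higher, 20 of 29 immediate early and heat shock genes were lower and 2 higher, 19 of 22 cytokine receptor and signalling genes and 15 of 18 trafficking genes were lower, and of 31 proteasome genes 7 were higher and 4 lower. There 10 of 11 mitochondrially encoded genes were lower, and 50 of 77 ribosomal protein genes were lower and 1 higher.

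**Figure D4:**
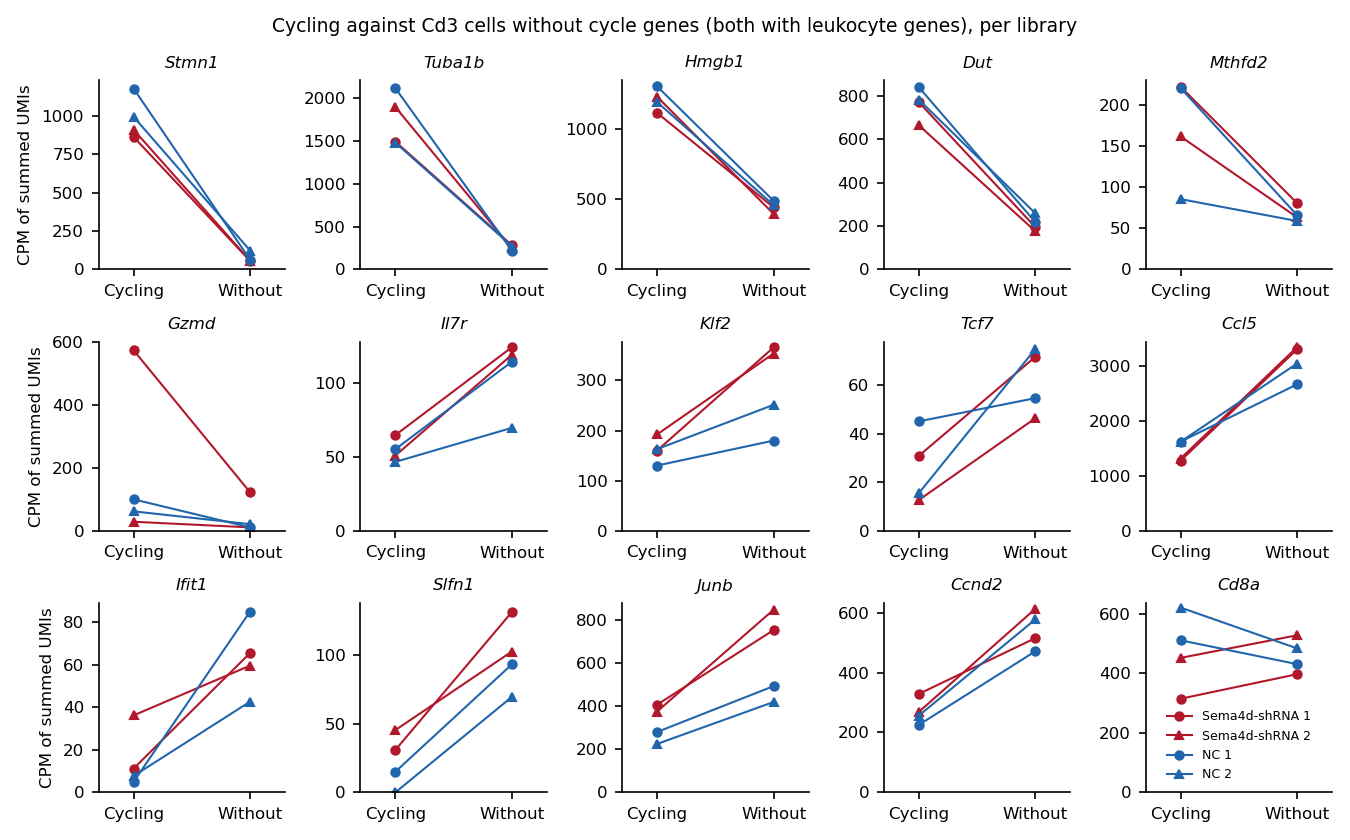
CPM of 15 genes in cycling cells (left) and in Cd3 cells without cycle genes (right), all with leukocyte genes, with a line for each of the 4 libraries. Stmn1, Tuba1b, Hmgb1, Dut, Mthfd2 and Gzmd fall to the right in every library, Il7r, Klf2, Tcf7, Ccl5, Ifit1, Slfn1, Junb and Ccnd2 climb to the right in every library, and Cd8a does neither.

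Sema4d-shRNA and NC tumours were then compared within the cycling cells, with 2 libraries against 2. In the cells with leukocyte genes, 28 of 3751 genes (0.746%) differed, 13 (0.347%) higher and 15 (0.4%) lower with Sema4d-shRNA. In the full set of the rule 7 of 7619 genes (0.0919%) differed, of which 2 (0.0263%) were higher, Ifitm1 and Ifit3, and 5 (0.0656%) lower, Gm26870, Apoe, mt-Atp6, Gm10800 and mt-Co3. In CD8 cells with leukocyte genes only Gm26870 passed, and DESeq2 called 5, all lower (Hist1h2ae, mt-Co2, mt-Co3, mt-Nd1 and mt-Nd4). The genes named below thus rest on edgeR and on the cells taken, and all 26 that could be tested in CD8 cells kept their direction there. Members holding genes of other cell types, a larger share in the NC libraries, were kept. Their part in the comparison of cells with leukocyte genes was not tested.

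Granule and chemokine genes were among the higher ones. Ifitm1, an interferon-induced membrane protein (chr7:140967221-140969825, plus strand, GRCm38), had 1283 and 560.5 CPM in cycling cells of the Sema4d-shRNA libraries, against 145 and 62.1 CPM in those of the NC libraries (log2 3.09 ± 0.35, SE; edgeR adjusted p = 1.43e-07). It was found in 15 of 52 and 38 of 109 cells in the Sema4d-shRNA libraries and in 10 of 36 and 5 of 25 in the NC libraries. The groups did not overlap, and without the cell with the most UMIs in each library the levels were 988 and 481 CPM against 81.8 and 34.9 CPM. Ifitm2, a near copy with which reads may be shared, was higher too (log2 1.87).

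Gzmc, a granzyme (chr14:56231441-56234656, minus strand, GRCm38), had 1558 and 646 CPM in the Sema4d-shRNA libraries, against 265 and 318 CPM in the NC libraries (log2 1.95 ± 0.27, SE; edgeR adjusted p = 1.97e-07). The groups did not overlap, but 17 and 16 cells in the Sema4d-shRNA libraries and 7 and 5 in the NC libraries held all of its UMIs, and 1 cell held 31.5% and 56.7% and 47.2% and 65.9% of them. Its near copies in the granzyme cluster leave its counts uncertain. Gzmb (chr14:56258838-56262260, minus strand, GRCm38) had 2676 and 1750 CPM in the Sema4d-shRNA libraries, against 1412 and 1249 CPM in the NC libraries (log2 0.76 ± 0.19, SE; edgeR adjusted p = 0.00809). It did not pass without NC library 1, without NC library 2 or without Sema4d-shRNA library 1 (edgeR adjusted p of 0.135, 0.408 and 0.998). Prf1 did not pass (log2 0.44, edgeR adjusted p = 0.716), and of 28 cytotoxic genes these 2 granzymes alone were higher, with a median of -0.03 against 0.01 over all 3751 genes.

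Ccl1, the ligand of the chemokine receptor CCR8, had 49 and 142 UMIs in cycling cells of the Sema4d-shRNA libraries, or 138 and 258 CPM, against 5 and 0 UMIs in the NC libraries, or 25.04 and 0 CPM (log2 3.73 ± 0.48, SE; edgeR adjusted p = 2.94e-11). All 5 UMIs of NC library 1 came from 1 cell. Serpine2, a serpin, had 63 and 51 UMIs against 6 and 0 UMIs (log2 2.87), and Bzw2, a regulator of translation, 31 and 26 UMIs against 1 and 1 UMI, a ratio of 10.3 in CPM with an exact 95% counting interval of 2.73 to 87.3. Plac8 (log2 1.11), Ybx3 (1.17), Ly6c2 (0.97), Atf3 (1.95), the interferon gene Isg15 (1.65) and Hist1h2bc (1.20) were the others that were higher. Ifitm1, Gzmc, Ccl1 and Serpine2 passed with each library left out in turn. Calls were lost, with edgeR adjusted p of 0.0856 to 0.688, without NC library 1 for Ifitm2, Bzw2, Ybx3, Isg15 and Hist1h2bc, without NC library 2 for Ifitm2, Plac8, Ly6c2, Atf3 and Hist1h2bc, without Sema4d-shRNA library 1 for Ifitm2 and Ybx3, and without Sema4d-shRNA library 2 for Ly6c2, Atf3, Isg15 and Hist1h2bc.

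The lower genes were mostly mitochondrially encoded. Of 11 tested, 9 were lower and none higher (median log2 -1.67). mt-Co2, a subunit of cytochrome c oxidase, had 239 and 497 CPM in cycling cells of the Sema4d-shRNA libraries, against 1152 and 1117 CPM in those of the NC libraries (log2 -1.58, edgeR adjusted p = 4.02e-10). The cells without cycle genes had the same order, 561 and 766 CPM against 1854 and 1847 CPM, beside the mitochondrial shares given above, whose part in these results was not tested. Tox, a factor of exhausted T cells (chr4:6686353-6991557, minus strand, GRCm38), had 14.04 and 39.9 CPM against 65.1 and 132 CPM (log2 -1.65 ± 0.45, SE; edgeR adjusted p = 0.0394), on 5 and 22 UMIs against 13 and 17 UMIs, and did not pass without NC library 2 or Sema4d-shRNA library 1 (edgeR adjusted p of 0.662 and 0.998). Hist1h2ae (log2 -1.08), a replication histone with near copies, and Nkain2 (-1.01) were lower as well. So were Gm26870 (-3.74), which GENCODE lists as a long non-coding RNA, and Gm10800, which it lists as protein-coding. The 15 lower genes also count C1qc, 1 of the 3 macrophage genes by which cells were left out, and its levels of 30.9 and 16.3 CPM against 85.1 and 77.6 CPM are a description only. Calls were lost without NC library 1 for Hist1h2ae, mt-Nd2 and mt-Nd5, and without NC library 2 for Nkain2 and mt-Nd2. Nkain2 and Gm10800 lost theirs without either Sema4d-shRNA library, and mt-Nd2 and mt-Nd5 without Sema4d-shRNA library 1. There mt-Nd2 stood at log2 -1.12 and -1.20 without NC libraries 1 and 2, and at -0.80 without Sema4d-shRNA library 1. mt-Nd5 stood at -1.53 without NC library 1 and -1.50 without Sema4d-shRNA library 1. Gm10800 had 3 and 0 UMIs against 17 and 6 UMIs, a ratio of 0.0472 with an exact 95% counting interval of 0.00908 to 0.156. No S phase or G2 and M phase gene passed among 33 and 37 tested (edgeR), with 3 in each list at an unadjusted p under 0.05 and medians of -0.12 and -0.17, and none of 17 T-cell lineage genes did, 2 of them at an unadjusted p under 0.05, Cd8a included (log2 -0.52, edgeR adjusted p = 0.549). Sema4d was at 168 and 190 CPM against 235 and 155 CPM in these host cells (log2 -0.13, edgeR adjusted p = 0.989).

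**Figure D5:**
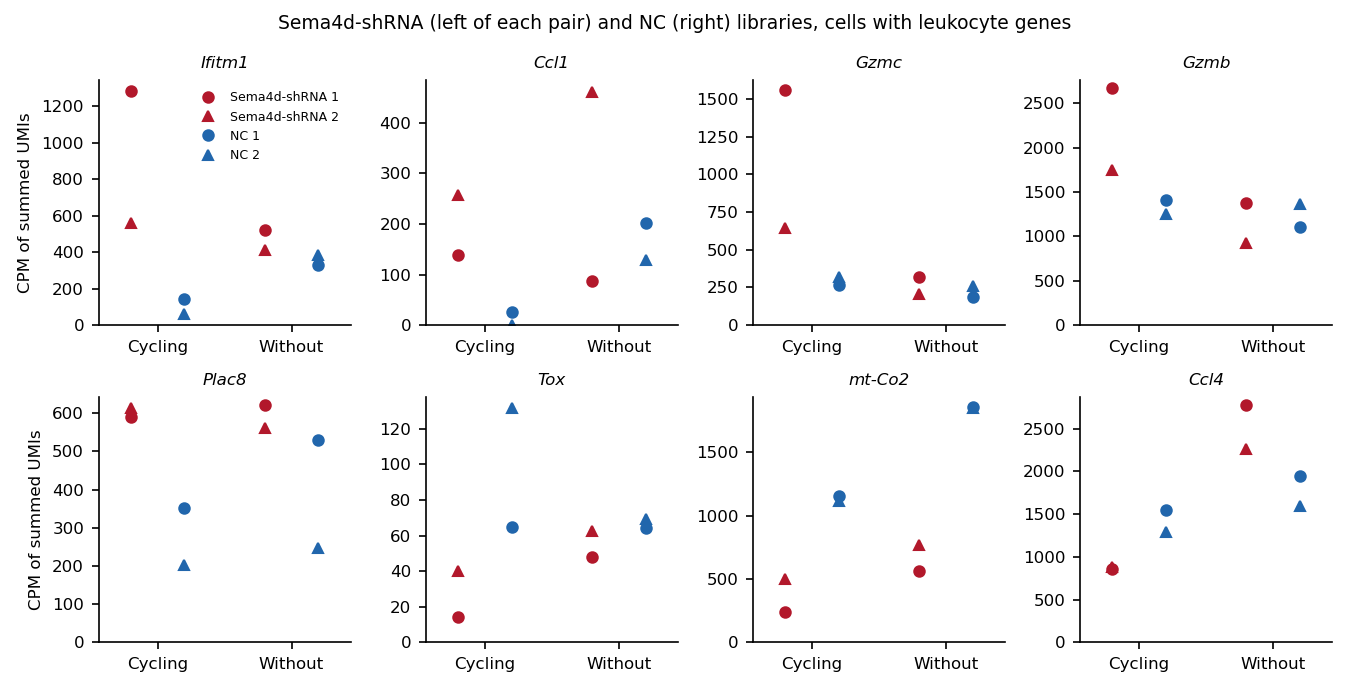
CPM of 8 genes per library, in cycling cells and in Cd3 cells without cycle genes, all with leukocyte genes, with Sema4d-shRNA libraries left of NC libraries. Ifitm1, Ccl1, Gzmc and Gzmb stand higher in Sema4d-shRNA libraries in the cycling cells, and mt-Co2 lower in both sets of cells.

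Whether these differences belonged to the cycling cells was asked by testing the Sema4d-shRNA effect in cycling cells minus that in cells without cycle genes, in edgeR with library as a block. In the cells with leukocyte genes, 8 of 6099 genes (0.131%) differed, of which 7 (0.115%) had a more positive effect in cycling cells and 1 (0.0164%) a more negative one. In the full set of the rule 4 of 8342 genes (0.048%) differed, 3 (0.036%) in the positive and 1 (0.012%) in the negative direction. Ifitm1 stood at 524 and 410 CPM against 328 and 382 CPM in cells without cycle genes, so that the effects differed by log2 2.57 (edgeR adjusted p = 2.77e-09). Gzmc stood there at 322 and 207 CPM against 185 and 262 CPM (difference of effects 1.57), and Gzmb at 1380 and 927 CPM against 1109 and 1371 CPM (0.84). Both pairs overlapped in the cells without cycle genes and did not in the cycling cells. Ccl1 stood there at 86.5 and 461 CPM against 202 and 128 CPM (3.21), and Tnfrsf4, the costimulatory receptor OX40, at 330 and 223 CPM against 268 and 489 CPM, with 326 and 190.5 CPM against 135 and 140 CPM in cycling cells (1.27).

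Ccl4, a chemokine made by killer cells (chr11:83662584-83664683, plus strand, GRCm38), went the other way. It had 859 and 876 CPM in cycling cells of the Sema4d-shRNA libraries, against 1552 and 1296 CPM in those of the NC libraries, and 2771 and 2267 CPM against 1951 and 1598 CPM in cells without cycle genes, so the effects differed by log2 -1.19 (edgeR adjusted p = 5.28e-09). Within the cycling cells alone it did not pass (log2 -0.69, edgeR adjusted p = 0.0698). Of the 8 genes, 0 passed without NC library 2 and only Ifitm1 without NC library 1, 3 without Sema4d-shRNA library 1 (Ccl1, Ccl4 and Ifitm1) and 7 without Sema4d-shRNA library 2. DESeq2 called 2 of the 8, and so did edgeR in CD8 cells only.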

How the data were processed

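Single-cell RNA was measured by droplet sequencing (DNBelab C Series, per the labels) in 2 Sema4d-shRNA and 2 NC libraries. The authors deposited UMI counts per gene and cell as matrices made with PISA 1.0, per the file headers; the submitters' processing notes name STAR 2.5.1b and the builds GRCh38 and mm10. Cells were gated from these counts as stated, thinned where said (numpy 2.4.6), and scored with scrublet in scanpy 1.11.5. Counts were summed per library and cell set, scaled to CPM, and tested with edgeR 4.0.16 (quasi-likelihood, robust, TMM, filterByExpr; Benjamini-Hochberg adjustment over all genes tested, 0.05). Library was a block between cell states. DESeq2 1.42.0 was an alternative. Shares were compared by exact two-sided permutation over libraries, with exact binomial (Clopper-Pearson) 95% intervals. The fits were also run on simulated counts, with changes placed only in genes of many UMIs. That run does not cover genes that rest on few cells or few UMIs. Named genes were the 12 smallest p in each direction outside the cycle lists, a set of T-cell genes, and up to 4 genes of each list; C1qc, Nkain2 and Hspa8 were named after their values were seen. Members and lists were chosen with earlier results of these data known. Genes of the T-cell receptor constant regions were not used here. Gene positions came from GENCODE M21 (GRCm38).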

Additional observations from a re-analysis of the deposited data

Results flagged for a closer look

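For 8 genes in the cells with leukocyte genes, the effect of Sema4d-shRNA differed between cycling T cells and Cd3 cells without cycle genes, by edgeR's test of that difference. The differences of the log2 effects, cycling minus without cycle genes, were 2.57 for Ifitm1, 1.57 for Gzmc, 0.84 for Gzmb, 3.21 for Ccl1, 3.42 for Bzw2, 1.27 for Tnfrsf4, 4.14 for Penk and -1.19 for Ccl4. Penk, the precursor of enkephalins, had 84.2 and 34.5 CPM in cycling cells of the Sema4d-shRNA libraries, against 5.01 and 0 CPM in those of the NC libraries, a ratio of 17.7 on 49 UMIs against 1 UMI with an exact 95% counting interval of 3.04 to 715. In the cells without cycle genes Penk had 68.6 and 37.2 CPM against 70.7 and 24.1 CPM. Over all cells of the rule the effect differed for Ifitm1 by 2.48, for Gzmc by 1.47, for the chemokine gene Ccl2 by 2.23 and for the matrix gene Dcn by -6.03. The causes were not tested.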

How the results depend on the processing

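Over all cells of the rule, the difference in the cycling share of Cd3 cells (Sema4d-shRNA minus NC) was 3.89 percentage points. It was 1.78 under a stricter rule (2 Cd3 and 3 cycle UMIs), 5.24 without cells holding other cell types' genes, 0.806 after thinning, 2.37 with leukocyte genes and 0.439 with both. As a share of all cells the differences were 0.309, 0.152, 0.376 and 0.136 for the stricter rule, thinning, leukocyte genes and both. The CD8 share, cycling minus without cycle genes, was 15.9 points under the stricter rule and 21.6 with leukocyte genes, and the S phase difference -1.83 without marked doublets. Leaving out 1 library each time gave 2.71 to 5.08 points, 0.405 to 0.812 of all cells, -1.01 to 7.68 for CD8 by state, -22.9 to 0.664 for CD8 by group and -0.927 to 1.47 for S phase.

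Genes differing by state numbered 1302 under the stricter rule, 1394 without other cell types, 1354 in cells of at least 3000 UMIs and 904 with leukocyte genes, where CD8 cells gave 530 and DESeq2 570. Leaving out libraries gave 1908 to 3060 genes by the rule and 614 to 918 with leukocyte genes. Between the groups, the rule gave 34 genes without the low-count filter, 17 with DESeq2, 12 under the stricter rule, 11 without doublets, 28 with leukocyte genes and 0 (edgeR) without other cell types, where 237 had an unadjusted p under 0.05; with leukocyte genes, CD8 cells gave 1 and DESeq2 5. Leaving out libraries gave 8 to 32 and 22 to 44. The difference of effects gave, by the rule, 8 genes without the filter, 2 with DESeq2, 8 under the stricter rule, 1 without other cell types and 8 with leukocyte genes, where CD8 cells and DESeq2 gave 2 each; leaving out libraries gave 2 to 8 and 0 to 12.

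Replicate numbers are shared by the groups, and the labels do not say that they pair libraries. Deviations of same-numbered libraries correlated at 0.134 (rule) and 0.0015 (leukocyte genes), and 2 pairs cannot settle whether the numbers pair them. With a replicate block the group comparison gave 17 genes by the rule and kept 23 of the 28 with leukocyte genes; without the block the difference of effects gave 0 by the rule (edgeR; 283 at an unadjusted p under 0.05) and 1 with leukocyte genes. Signs turned over all cells of the rule for Myc (0.37), Ecm1 (0.29), Gzmb (-0.60) and Prf1 (-0.82), in CD8 cells for Prf1 (-0.038), on leaving out a Sema4d-shRNA library for Cd8a by state (range over the 4 libraries -0.17 to 0.038), and without NC library 1 for Sema4d by group (range -0.34 to 0.29). The causes were not tested. The alternatives with leukocyte genes or CD8 cells were chosen after seeing the data. The low number of cycling cells per library limits every gene value here.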
